A study of Homo sapiens with 6 samples.

Results

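The genes described here are 10 ephrins and Eph receptors of colon epithelium, 6 receptors (EPHA1, EPHA2, EPHA4, EPHB2, EPHB3 and EPHB4) and 4 ephrins (EFNA1, EFNA3, EFNB1 and EFNB2), among the 58735 genes of the count table. They were found by matching the Ensembl gene IDs of the table to these names in GENCODE release 29, and all 10 had enough reads to be tested. The cells were HCT116, an established human colorectal carcinoma line that carries an activating mutation of beta-catenin. In 3 libraries the cells carried an empty vector, with the genotype given as WT, and in 3 they overexpressed SETD8, a lysine methyltransferase of histone H4 whose gene is now called KMT5A. The cells of all 6 libraries were grown in the same serum-containing medium. Both plasmids were delivered by lentivirus, followed by puromycin selection of stable clones. The series' design text speaks of transfection instead. The labels do not say how many clones each group held, the promoter of the construct or the time after transduction. The series concerns the methylation of the coactivator YAP by SETD8, and the comparison of the groups asks which transcripts differ with SETD8.

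Eph receptors are receptor tyrosine kinases, and their ephrin ligands sit in the membrane of the neighbouring cell, so signals pass where cells touch. The receptor-bearing cell responds by forward signalling, and the ephrin-bearing cell by reverse signalling. Ephrin-A ligands hold to the membrane by a lipid anchor and bind mainly EPHA receptors, while ephrin-B ligands span it and bind mainly EPHB receptors. EPHA4 is known to bind ligands of both classes. In the intestinal crypt, EPHB2 and EPHB3 are targets of Wnt signalling through beta-catenin and TCF factors and are known for keeping cell types in their positions along the crypt against an opposing gradient of ephrin-B1.

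Libraries held 17056672 to 20471843 counted reads, and 3 reads of a gene amounted to 0.15 to 0.17 CPM (reads scaled to library size with TMM), which sets the floor from counting error alone. KMT5A itself had 46.0, 47.3 and 53.9 CPM in vector replicates 1, 2 and 3 and 65.4, 66.2 and 75.5 CPM in SETD8 replicates 1, 2 and 3, so its groups did not overlap (log2 fold change 0.49, edgeR adjusted p = 0.0156). KMT5A did not pass when vector replicate 2 or SETD8 replicate 1, 2 or 3 was left out (edgeR adjusted p = 0.0965, 0.0661, 0.0579 and 0.0949). One vector library stood apart from the other vector libraries. In a principal component analysis of log2 CPM, on the leading component (46.4% of the variance), vector replicate 1 lay at -0.94, vector replicates 2 and 3 at 25.7 and 39.3, and the SETD8 libraries at -23.8 to -16.5. The labels do not give separate cultures for the replicates, so the spread behind every p-value here may be technical. In bulk RNA a lower count cannot be told apart from fewer cells that carry the transcript.

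Of these 10 genes, 4 were lower with SETD8 and 1 was higher. EPHA1, EPHA2, EPHA4 and EFNB1 fell and EFNA3 rose (edgeR's quasi-likelihood test, two-sided, Benjamini-Hochberg adjusted p under 0.05 over 14370 genes tested). Of all tested genes, 4.75% were called lower and 3.08% were called higher. EPHB2, EPHB3, EPHB4, EFNA1 and EFNB2 did not pass. Log2 fold changes (SETD8 minus vector) were negative for 9 of the 10 genes. The median of the 10 was -0.42, against 0.00047 over all genes tested. The 10 genes and the gene lists below were chosen with earlier results of these data known. Their contrasts with all genes are thus descriptions and not tests. The groups did not overlap in 5 genes that were lower with SETD8 and in 1 that was higher, while this held for 15.9% of all tested genes on the lower side and 14.4% on the higher side. The calls depended on which libraries were kept, over all genes as well as among these 10. With all libraries edgeR called 1125 genes in all. Without vector replicate 2 it called 0 of the 10 genes and 72 of all 14666 tested. Without SETD8 replicate 1 it called 0 of the 10 and 11 of all 14734. Without vector replicate 1 it called 7 of the 10 and 3509 of all 14715.

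**Figure D1:**
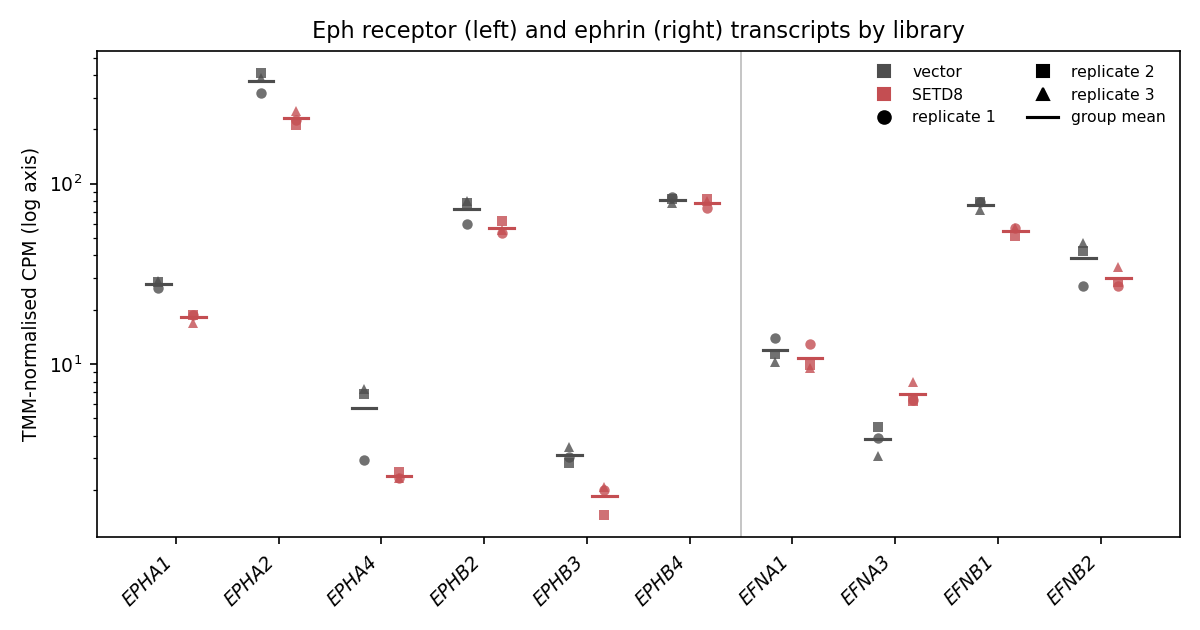
Level of each of the 10 genes in each library, in TMM-normalised CPM on a log axis, with receptors left and ephrins right of the grey line. Colours give the group, marker shapes the replicate number and bars the group mean. The 3 vector points lie above all 3 SETD8 points for EPHA1, EPHA2, EPHA4, EPHB3 and EFNB1 and below them for EFNA3.

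EPHA2, a receptor known for high levels in many epithelial cancers, was by far the most abundant family transcript and fell 1.61-fold. It lies on chromosome 1 (16124337 to 16156087, minus strand, GRCh38, ENSG00000142627). Levels were 318, 411 and 384 CPM in vector replicates 1, 2 and 3, against 226, 212 and 253 CPM in SETD8 replicates 1, 2 and 3. The lowest vector library, replicate 1, still stood above the highest SETD8 library. Group means were 371 ± 48.0 and 230.4 ± 20.8 CPM (n = 3 each, SD), a log2 difference of -0.69 (SE 0.11; edgeR adjusted p = 0.00556). Leaving out vector replicate 2 or SETD8 replicate 1 ended the call (edgeR adjusted p = 0.0530 and 0.0508), at log2 fold changes of -0.60 and -0.67.

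The upstream sequence of EPHA2 is shown because TEAD factors, the DNA-binding partners of YAP, recognise a short motif that occurs in it. The 250 bases before the RefSeq start (GRCh38.p14, chr1:16156070-16156319, minus strand) read as follows, with the motif CATTCC in capitals, its first base at -73 from the start.
EPHA2: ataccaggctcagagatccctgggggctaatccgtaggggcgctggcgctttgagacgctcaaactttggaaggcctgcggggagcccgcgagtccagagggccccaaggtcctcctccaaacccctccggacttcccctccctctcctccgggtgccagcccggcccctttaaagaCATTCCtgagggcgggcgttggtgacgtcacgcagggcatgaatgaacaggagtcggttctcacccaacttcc
The motif was searched on both strands (CATTCC or GGAATG) and was found in 11.9% of 35116 such upstream windows in RefSeq. All 10 genes matched the RefSeq table, with 12 windows, and 1 of these held the motif. The TCF motif (ATCAAAG or CTTTGAT), which shares no overlap with the TEAD match, was in 0 of the 12 windows and in 2.26% of all windows. Such matches describe the letters of these windows and say nothing of binding. The 12 windows, in which EPHA4 and EPHB2 count more than once, had a median of 23.5 CpG dinucleotides against 11 over all windows. All windows were taken whether or not their genes had reads, whereas the 10 genes were all tested.

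EPHA1 fell 1.53-fold and showed little spread between libraries. It is on chromosome 7 (143390289 to 143408892, minus strand, ENSG00000146904) and encodes an ephrin-A receptor found mainly in epithelia. Its levels were 26.5, 28.3 and 28.8 CPM in vector replicates 1, 2 and 3 and 18.7, 18.8 and 16.98 CPM in SETD8 replicates 1, 2 and 3. All vector libraries stood well above all SETD8 libraries, and vector replicate 1 lay with its group. Group means were 27.9 ± 1.23 and 18.2 ± 1.02 CPM (n = 3 each, SD), a log2 difference of -0.62 (SE 0.11; edgeR adjusted p = 0.00860). The call was lost without vector replicate 2 and without SETD8 replicates 1 and 3 (edgeR adjusted p = 0.0685, 0.0565 and 0.0651). EPHA1 shares 82 exonic bases, 1.73% of its exon length, with ZYX on the opposite strand. Whether reads were counted by strand is not known here, so reads in these bases could belong to either gene. How many there were was not measured. ZYX held 3535 to 5522 reads a library, and EPHA1 held 292 to 568. ZYX had a log2 fold change of -0.29 (edgeR adjusted p = 0.0533).

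EPHA4 had the largest fall of the 10 genes by fold, at a low level, and its vector libraries disagreed. The gene lies on chromosome 2 (221418027 to 221574202, minus strand, ENSG00000116106). Vector replicates 1, 2 and 3 held 54, 137 and 127 reads, or 2.94, 6.84 and 7.32 CPM, and SETD8 replicates 1, 2 and 3 held 44, 49 and 40 reads, or 2.33, 2.54 and 2.33 CPM. Vector replicate 1 thus stood just above the SETD8 libraries and far below the other vector libraries. Group means were 5.70 ± 2.40 and 2.40 ± 0.12 CPM (n = 3 each, SD), a log2 difference of -1.25 (SE 0.30; edgeR adjusted p = 0.0287), a 2.37-fold fall. It was -1.56 without vector replicate 1 (edgeR adjusted p = 6.45e-05). The call was lost with limma-voom (adjusted p = 0.0690). It was also lost when vector replicate 2 or SETD8 replicate 1, 2 or 3 was left out (edgeR adjusted p = 0.149, 0.120, 0.0936 and 0.113). An antisense gene shares 353 exonic bases with EPHA4 and had at most 6 reads in a library. The assignment of reads in these bases is not known here.

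Of the 3 type B receptors, 0 were called by edgeR, DESeq2 or limma-voom. By edgeR 2 were lower at an unadjusted p under 0.05, as were 1978 of all 14370 tested genes. EPHB4, a receptor for ephrin-B2 known for marking veins and also present in epithelial cells, differed least between the groups. It is on chromosome 7 (100802565 to 100827521, minus strand, ENSG00000196411). It had 84.4, 82.4 and 78.1 CPM in vector replicates 1, 2 and 3 and 73.0, 82.1 and 80.4 CPM in SETD8 replicates 1, 2 and 3, so the groups overlapped. The log2 fold change had a 95% interval of -0.30 to 0.19 around -0.06 (SE 0.09; edgeR adjusted p = 0.715), and was 0.0082 with length correction. The interval uses a t quantile at the 4 degrees of freedom of the libraries and is not adjusted for the number of genes. Its SE comes from edgeR's F, whose dispersion draws on all tested genes, so interval and p need not match. EPHB4 shares 69 exonic bases with SLC12A9 on the opposite strand, which had a log2 fold change of 0.03 (edgeR adjusted p = 0.916). Reads in these bases could belong to either gene.

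EPHB2 and EPHB3, the crypt receptors, were both lower on average but did not pass. EPHB2, on chromosome 1 (22710839 to 22921500, plus strand, ENSG00000133216), had 59.7, 78.1 and 80.2 CPM in vector replicates 1, 2 and 3 and 53.0, 62.1 and 55.2 CPM in SETD8 replicates 1, 2 and 3. Vector replicate 1 lay below SETD8 replicate 2, and the other vector libraries lay above every SETD8 library. The log2 fold change had a 95% interval of -0.68 to -0.030 around -0.36 (SE 0.12; edgeR adjusted p = 0.0781). It was -0.48 without vector replicate 1, where it passed (edgeR adjusted p = 0.00112), and -0.17 with length correction (edgeR adjusted p = 0.278). EPHB3, on chromosome 3 (184561784 to 184582409, plus strand, ENSG00000182580), was low, with 3.05, 2.84 and 3.46 CPM in vector replicates 1, 2 and 3 and 2.01, 1.45 and 2.09 CPM in SETD8 replicates 1, 2 and 3. Every vector library was above every SETD8 library. At 28 to 60 reads a library, the log2 fold change of -0.75 had an SE of 0.26 (95% interval -1.48 to -0.019, edgeR adjusted p = 0.0948).

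EFNB1, the more abundant ephrin-B ligand, fell 1.39-fold. The gene is on chromosome X (68828997 to 68842147, plus strand, ENSG00000090776). It had 78.8, 78.9 and 71.5 CPM in vector replicates 1, 2 and 3 and 56.4, 51.3 and 57.1 CPM in SETD8 replicates 1, 2 and 3. The groups were well separated, and vector replicate 1 stood at the top of its group together with replicate 2. Group means were 76.4 ± 4.23 and 54.9 ± 3.16 CPM (n = 3 each, SD), a log2 difference of -0.48 (SE 0.09; edgeR adjusted p = 0.0117). The call was lost without vector replicate 2 and without SETD8 replicates 1, 2 and 3 (edgeR adjusted p = 0.0872, 0.0684, 0.0711 and 0.0632).

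EFNB2, the ligand of EPHB4, did not pass. It is on chromosome 13 (106489731 to 106535662, minus strand, ENSG00000125266) and had 27.1, 42.6 and 46.7 CPM in vector replicates 1, 2 and 3 and 27.1, 28.6 and 34.4 CPM in SETD8 replicates 1, 2 and 3. Vector replicate 1 stood level with the lowest SETD8 library, while the other vector libraries stood above all 3. For the log2 fold change of -0.37 the 95% interval ran from -0.85 to 0.11 (SE 0.17; edgeR adjusted p = 0.195), and without vector replicate 1 it was -0.58 and passed (edgeR adjusted p = 0.00124). An antisense gene covers 26.2% of its exon length and had at most 3 reads in a library. How reads in the shared bases were assigned is not known, so the level of EFNB2 is uncertain for that reason.

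EFNA1, a ligand of EPHA2, is on chromosome 1 (155127460 to 155134857, plus strand, ENSG00000169242) and did not pass. It had 14.0, 11.4 and 10.3 CPM in vector replicates 1, 2 and 3 and 12.9, 9.89 and 9.48 CPM in SETD8 replicates 1, 2 and 3. The ranges of the groups overlapped over most of their width. For the log2 fold change of -0.15 the 95% interval ran from -0.61 to 0.31 (SE 0.17; edgeR adjusted p = 0.611), which holds both falls and rises.

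EFNA3 was the one gene of the 10 that rose, 1.78-fold, from a low level. This ephrin-A gene lies on chromosome 1 (155078872 to 155087538, plus strand, ENSG00000143590). Vector replicates 1, 2 and 3 held 71, 90 and 54 reads, or 3.87, 4.49 and 3.11 CPM, and SETD8 replicates 1, 2 and 3 held 120, 121 and 136 reads, or 6.36, 6.26 and 7.91 CPM. Each SETD8 library was above each vector library, and vector replicate 1 lay in the middle of its group. Group means were 3.82 ± 0.69 and 6.84 ± 0.93 CPM (n = 3 each, SD), a log2 difference of 0.83 (SE 0.20; edgeR adjusted p = 0.0280). The call held without vector replicate 1 (edgeR adjusted p = 0.0112) and was lost without any other library (edgeR adjusted p = 0.0520 to 0.129). A readthrough gene that joins EFNA4 and EFNA3 covers 44.7% of the exon length of EFNA3 and had 0 counts in each library. How reads in the shared exons were assigned is not known here, and the level of EFNA3 is uncertain for that reason.

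The windows of EPHA1, EPHA4 and EFNB1, which fell, held neither motif, and nor did that of EFNA3, which rose. Lack of the motifs was thus not particular to EFNA3. The 250 bases before the RefSeq start of EFNA3 (GRCh38.p14, chr1:155078587-155078836, plus strand) are shown as those of the one gene that rose, and carry no capitals.
EFNA3: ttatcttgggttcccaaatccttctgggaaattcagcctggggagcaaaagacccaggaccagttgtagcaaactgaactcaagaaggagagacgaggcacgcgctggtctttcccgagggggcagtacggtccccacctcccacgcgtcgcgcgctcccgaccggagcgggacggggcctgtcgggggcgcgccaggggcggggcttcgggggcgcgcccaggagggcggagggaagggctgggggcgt
It held 23 CpG dinucleotides, and the EPHA2 window held 15.

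**Figure D2:**
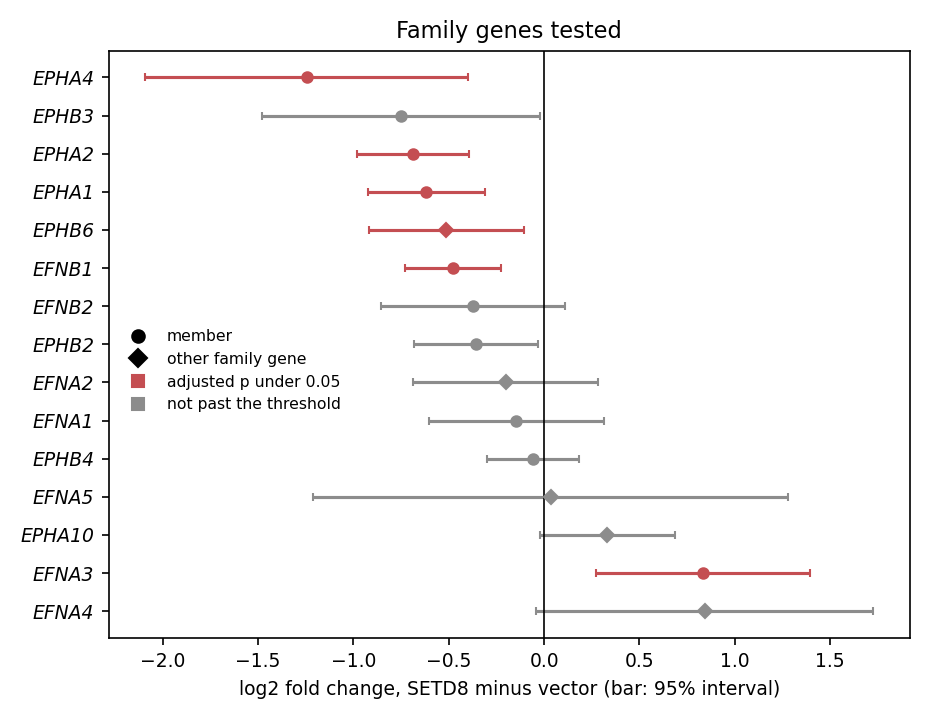
Log2 fold change, SETD8 minus vector, of the 15 family genes tested. Bars give the 95% interval with an SE from edgeR's F, whose dispersion draws on all tested genes. The interval is not adjusted for the number of genes. Circles are the 10 genes described here and diamonds other family genes. Red marks an edgeR adjusted p under 0.05, which EPHA4, EPHA2, EPHA1, EPHB6 and EFNB1 reach on the left of 0 and EFNA3 on the right.

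Most other members of the family were low or silent. Of 12 other Eph receptors and ephrins, 5 were tested and 1 passed as lower, where 4.75% of all tested genes were lower. This was EPHB6, whose kinase domain lacks activity. EPHB6 averaged 14.3 ± 2.02 CPM across vector libraries against 9.98 ± 0.70 CPM across SETD8 libraries (n = 3 each, SD), a log2 difference of -0.51 (SE 0.15; edgeR adjusted p = 0.0489). Its call was lost with library totals (edgeR adjusted p = 0.0645), limma-voom (adjusted p = 0.0589) and the replicate block (edgeR adjusted p = 0.0620), and without each library other than vector replicate 1 (edgeR adjusted p = 0.0853 to 0.211). The receptor gene EPHA10 stood at 13.7 to 16.9 CPM across vector libraries against 17.4 to 19.98 CPM across SETD8 libraries (log2 fold change 0.33, edgeR adjusted p = 0.122), so its groups did not overlap. The ephrin genes EFNA4, EFNA2 and EFNA5 had log2 fold changes of 0.84, -0.20 and 0.04 (edgeR adjusted p = 0.115, 0.492 and 0.971). EFNA4, next to EFNA3 on the chromosome, held 19 to 41 reads in vector and 44 to 68 reads in SETD8 libraries. EPHA10 and EFNA4 passed without vector replicate 1 (edgeR adjusted p = 0.0317 and 0.0187). Of the 7 genes not tested, EPHA3, EPHA5 and EPHA7 had 0 counts in every library, which allows up to 0.15 to 0.17 CPM, and EPHA6, EPHA8, EPHB1 and EFNB3 had at most 6 reads in a library.

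Levels were then compared between genes per length, as RPKM (CPM divided by the kilobases of merged exons in GENCODE 29). EPHA2 led the receptors, with a mean of 89.2 RPKM in vector and 55.4 RPKM in SETD8 libraries. EPHB4 followed at 12.7 and 12.2 RPKM. EPHA2 remained first although it fell, and its range did not meet that of EPHB4 in either group. In vector libraries the order went on with EPHA1 (5.89 RPKM) and EPHB2 (5.81 RPKM), whose ranges overlapped. Next came EPHB6 (2.68 RPKM), EPHA10 (1.86 RPKM), and EPHA4 (0.75 RPKM) beside EPHB3 (0.69 RPKM), again with overlapping ranges. In SETD8 libraries EPHB2 (4.54 RPKM) stood above EPHA1 (3.84 RPKM) and EPHA10 (2.34 RPKM) above EPHB6 (1.87 RPKM), without overlap. EPHB3 and EPHA4 remained last, at 0.41 and 0.32 RPKM, with overlapping ranges. The place of EPHA1 depends on the length used: with the longest transcript in place of merged exons it stood above EPHB2 in both groups, at 8.29 and 6.72 RPKM in vector and 5.40 and 5.25 RPKM in SETD8 libraries.

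Among ephrins, EFNB1 was first in both groups, with 23.1 RPKM in vector and 16.6 RPKM in SETD8 libraries. EFNB2 (7.73 and 5.98 RPKM) and EFNA2 (6.23 and 5.42 RPKM) came next and overlapped in range in both groups. EFNA1 followed with 4.69 and 4.23 RPKM. Its place depends on the length used: with the longest transcript its means were 6.18 and 5.58 RPKM, against 6.23 and 5.42 RPKM for EFNA2, so that it stood above EFNA2 in SETD8 libraries. EFNA3 was clearly below EFNA1 in vector libraries at 2.00 RPKM and overlapped with it in SETD8 libraries at 3.58 RPKM. EFNA4 (1.26 and 2.27 RPKM) and EFNA5 (0.15 RPKM in each group) were last.

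**Figure D3:**
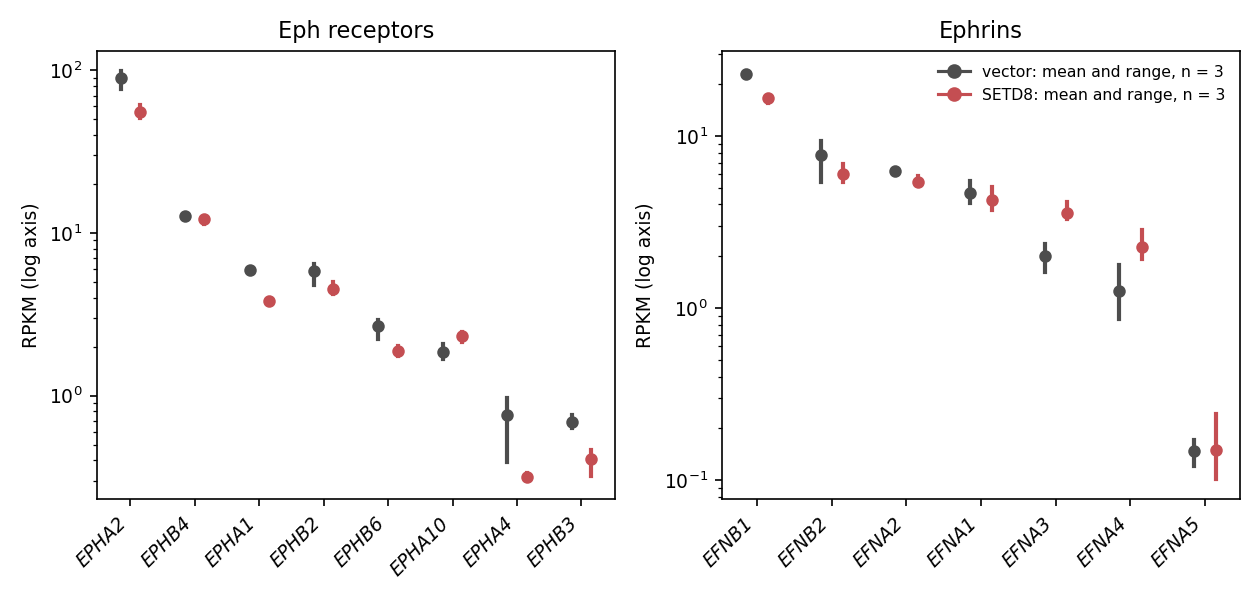
Per-length level of the tested Eph receptors (left) and ephrins (right), in RPKM on a log axis. Points are group means and lines run from the lowest to the highest of 3 libraries. EPHA2 stands apart from the other receptors in both groups, and EFNA3 approaches EFNA1 in the SETD8 libraries.

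The balance within the family differed between the groups, given here as values without a test, since the same fold changes underlie them. EPHA2 made up 72.6%, 75.9% and 74.9% of the summed per-length level of the 14 Eph receptors in vector replicates 1, 2 and 3, and 68.7%, 65.6% and 70.7% in SETD8 replicates 1, 2 and 3. EPHB4 made up 9.84% to 12.5% in vector and 14.3% to 16.4% in SETD8 libraries. Thus EPHA2 held a smaller part and EPHB4 a larger part of the receptor messages in each SETD8 library than in any vector library. With the longest transcript as the length, the mean EPHA2 share was 70.5% in vector and 63.9% in SETD8 libraries. The EPHA2 to EPHB4 ratio of per-length levels was 5.83, 7.72 and 7.61 in vector replicates 1, 2 and 3 and 4.798, 3.99 and 4.87 in SETD8 replicates 1, 2 and 3. The summed receptor level went from 105 to 130.3 RPKM in vector libraries to 77.7 to 86.0 RPKM in SETD8 libraries. The summed level of the 8 ephrins was 43.8 to 46.4 RPKM in vector and 35.6 to 40.0 RPKM in SETD8 libraries. Ephrin-A genes took 29.5% to 35.4% of the summed ephrin level in vector and 39.8% to 42.7% in SETD8 libraries.

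Of the 10 genes, 5 (EPHA1, EPHA2, EPHA4, EPHB2 and EFNB2) were lowest in vector replicate 1 among the vector libraries, the side on which the SETD8 libraries lie. EFNB1, EPHB3 and EFNA3 did not show this, and EFNA1 and EPHB4 were highest in that library. Without vector replicate 1, EPHB2 and EFNB2 passed as well, giving 6 lower genes and 1 higher. In that comparison 11.8% of all tested genes were lower and 12% were higher. Of the calls made with all libraries, 2 remained without SETD8 replicate 2 (EPHA1 and EPHA2), 1 without SETD8 replicate 3 (EPHA2) and 4 without vector replicate 3 (EPHA1, EPHA2, EPHA4 and EFNB1). Over all tested genes edgeR called 155, 129 and 1093 in these comparisons. Where edgeR called 0 of the 10 genes, 6 still had an unadjusted p under 0.05 without vector replicate 2. Over all 14666 tested genes, 1446 were lower and 1290 higher at that level. Without SETD8 replicate 1 it was 7 of the 10, against 1493 lower and 1278 higher of all 14734. Other tools were not run on these subsets. The sign of each log2 fold change was the same whichever library was left out.

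**Figure D4:**
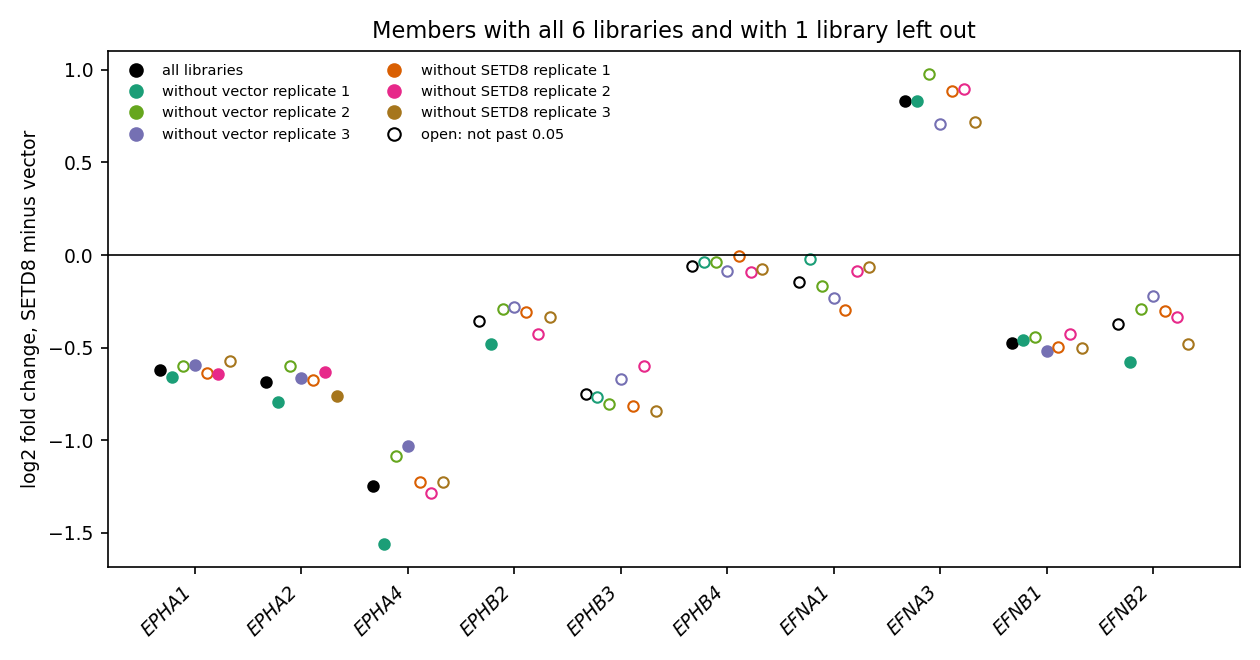
Log2 fold change, SETD8 minus vector, of the 10 genes with all 6 libraries (black) and with 1 library left out (colours). Filled points pass an edgeR adjusted p of 0.05 and open points do not. Points of 1 gene stay on one side of 0, while most become open without vector replicate 2 or a SETD8 library.

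Some genes that act downstream of Eph receptors were lower with SETD8. Of 35 genes for effectors of forward signalling, 32 were tested, 4 fell and 0 rose, against 4.75% of all tested genes lower and 3.08% higher. At an unadjusted p under 0.05 by edgeR, 8 were lower and 1 was higher, against 1978 and 1763 of all 14370 tested genes. DESeq2 called 6 lower and limma-voom 4, against 907 and 621 of all tested genes. Both called 0 higher, against 739 and 469 of all tested genes. The median log2 fold change of the 32 genes was -0.12. TIAM1, an activator of the small GTPase Rac, had 46.9, 74.4 and 77.4 CPM in vector replicates 1, 2 and 3 and 39.1, 41.0 and 38.4 CPM in SETD8 replicates 1, 2 and 3. Its log2 fold change was -0.75 (SE 0.16, edgeR adjusted p = 0.0170), and vector replicate 1 stood nearest to the SETD8 libraries. The tyrosine kinase gene ABL2 (-0.63), the serine/threonine kinase gene ROCK2 (-0.58) and PIK3R1 (-0.78), a regulatory subunit of phosphoinositide 3-kinase, also fell (edgeR adjusted p = 0.00848, 0.0184 and 0.0135). Without vector replicate 2, SETD8 replicate 1 or SETD8 replicate 2, none of these 4 genes was called (edgeR adjusted p = 0.0561 to 0.108). Without SETD8 replicate 3, TIAM1 and ROCK2 were not called (edgeR adjusted p = 0.0893 and 0.105), nor was TIAM1 without vector replicate 3 (edgeR adjusted p = 0.0509).

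Of 8 partners of ephrin-B reverse signalling, 7 were tested, with a median log2 fold change of -0.04. EdgeR, DESeq2 and limma-voom called 0 of them. By edgeR 2 were higher at an unadjusted p under 0.05, against 1763 of all 14370 tested genes. Of 12 genes that cleave, dephosphorylate or degrade Eph receptors and ephrins, 11 were tested. At an unadjusted p under 0.05 by edgeR, 2 were lower and 3 higher, against 1978 and 1763 of all tested genes. DESeq2 called 1 lower and limma-voom 0, against 907 and 621 of all tested genes. With adjustment edgeR called 0 lower and 1 higher, where 4.75% of all tested genes were lower and 3.08% higher. This was the gamma-secretase subunit gene PSENEN, at 2.71 to 4.63 CPM across vector libraries against 5.93 to 9.06 CPM across SETD8 libraries (a log2 difference of 1.08, SE 0.23; edgeR adjusted p = 0.0184). The list had a median log2 fold change of -0.0063. PSENEN was not called without vector replicate 2 or without SETD8 replicates 1, 2 and 3 (edgeR adjusted p = 0.107, 0.0535, 0.0921 and 0.0834).

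Of 19 Wnt and TCF target genes of the crypt, the pathway that also drives EPHB2 and EPHB3, 13 were tested. Among them 2 fell and 0 rose, against 4.75% lower and 3.08% higher of all tested genes. At an unadjusted p under 0.05 by edgeR, 5 were lower and 0 higher, against 1978 and 1763 of all 14370 tested genes. DESeq2 and limma-voom each called 2 lower and 0 higher. Over all tested genes DESeq2 called 907 lower and 739 higher, and limma-voom 621 and 469. The median log2 fold change of the 13 genes was -0.21. The falls were the Wnt antagonist gene NOTUM (-1.05, edgeR adjusted p = 0.0116) and the transcription factor gene SOX9 (-0.44, edgeR adjusted p = 0.0206). Neither was called when vector replicate 2 (edgeR adjusted p = 0.0872 and 0.133) or any SETD8 library (edgeR adjusted p = 0.0576 to 0.118) was left out.

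Most markers of epithelium were present in every library, and most markers of other cell types were near 0. EPCAM stood at 249 to 275 CPM and KRT8 at 5652 to 7316 CPM, and the 10 epithelial markers summed to 10955 to 13553 CPM in vector and 11577 to 13020 CPM in SETD8 samples. CDX1 had 0 counts and the markers of mature enterocytes VIL1 and LGALS4 stood at 0 to 0.23 CPM. Of 10 epithelial markers, 7 were tested, CDH1 (E-cadherin) fell and the claudin gene CLDN7 rose, by log2 fold changes of -0.54 and 0.43 (edgeR adjusted p = 0.0218 and 0.0444), while 4.75% of all tested genes were lower and 3.08% higher. The part of CDH1 and CLDN7 in the Eph results was not tested. Neither marker was called without vector replicate 2 or without any 1 of the SETD8 libraries, and CDH1 was not called without vector replicate 3 either (edgeR adjusted p = 0.0522 to 0.165). EPHB4 and EFNB2 are also endothelial genes, but the 8 endothelial markers summed to 1.45 to 2.82 CPM across vector libraries against 1.34 to 2.17 CPM across SETD8 libraries, with KDR at 0 counts and CDH5 at no more than 0.21 CPM. The 8 fibroblast markers summed to 4.85 to 7.32 CPM across vector libraries against 3.50 to 4.83 CPM across SETD8 libraries, most of it COL1A1, with COL1A2, PDGFRA and DCN at 0 counts. The 8 immune markers summed to 0.35 to 1.30 CPM across vector libraries against 0.47 to 0.64 CPM across SETD8 libraries, with PTPRC, CD3E and NKG7 at 0 counts.

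For the 5 genes that changed, the transcripts with the most similar profile over the 6 libraries were listed among 10478 genes with a mean of at least 5 CPM. Likeness was the root mean square distance between log2 CPM profiles, each centred on its own mean. Among those nearest to EPHA2 were NUP210 (0.051) and BFSP1 (0.068). Nearest to EPHA1 were GPC1 (0.054), IL17RA (0.054) and CDK10 (0.054). EPHA4, with its low vector replicate 1, was nearest to SYT12 (0.054), ALPK3 (0.10) and ABCC3 (0.11). EFNB1 was nearest to CHTF18 (0.026), TIMELESS (0.049) and DPP7 (0.051), and EFNA3 to SAP30 (0.085), SPTSSA (0.088) and FAM200B (0.10). Within the family, EPHA1 and EFNB1 were the closest pair (0.13), followed by EPHA1 with EPHA2 (0.15) and EPHB2 with EFNB2 (0.17), which were both low in vector replicate 1. These distances describe 6 libraries and carry no test.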

How the data were processed

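Messenger RNA of 6 HCT116 libraries, 3 vector and 3 SETD8, was poly(A)-selected and prepared with a strand-marking kit, per the labels' protocols. The deposited table holds raw read counts for 58735 Ensembl genes, not normalized. Aligners (STAR, HISAT2), counters (HTSeq, featureCounts) and the builds hg38 and GRCh38 are listed without order, per the submitters' processing notes. Not given in the sources used here: which of them made the counts, and with what annotation and strand option. Columns named NC were taken as vector, the only group besides SETD8, with the number as the replicate, and 0 columns belonged to other samples. All 58735 IDs matched GENCODE 29.

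Genes were filtered with filterByExpr (14370 kept), scaled by TMM and tested two-sided with edgeR 4.0.16 (quasi-likelihood, robust) in R 4.3.3, at a Benjamini-Hochberg adjusted p of 0.05. Limma 3.58.1 and DESeq2 1.42.0 served for alternatives. The test was checked on simulated data. The SE is the log2 fold change divided by the square root of F. Profile distances used log2 CPM with a prior count of 2.

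The 10 genes and all lists were chosen with earlier results of these data known. The rule for named genes took the 10 genes, tested family genes, up to 4 changed genes per list by adjusted p, and the 3 nearest profiles of each changed member. One gene that this rule selects is not reported here. Overlap partners were named for their position, and markers to describe the cells. The alternatives were library totals or DESeq2-type size factors as scaling, leaving out KMT5A, no or a stricter filter, DESeq2, limma-voom, a replicate block, length and GC corrections (lowess, span 0.3) and leaving out each library. The longest transcript as length was added after seeing the data. Promoter sequences are from RefSeq (GRCh38.p14).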

Additional observations from a re-analysis of the deposited data

How the results depend on the processing

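The 5 calls among the 10 genes remained with library totals or DESeq2-type size factors, without KMT5A, with the stricter filter, with DESeq2 and with length or GC correction. Limma-voom called 4, and with no low-count filter EPHB2 and EFNB2 joined them to give 7. Over all genes the count was 1125, and 2000 with no low-count filter, where 27442 genes were tested. Leaving out 1 library gave 11 to 3509 genes and 0 to 7 of the 10 described here, with the cause not tested. Scaling by library totals moved the counts over all genes from 682 lower and 443 higher to 505 and 792, while the 10 genes gave 4 lower and 1 higher under both. With the replicate number as a block, 1177 genes and 5 of the 10 passed. The replicate numbers are not stated to pair the samples. Same-numbered libraries had correlations of deviations from their group means of 0.025, 0.0078 and -0.064. With 3 libraries per group, these values cannot decide whether such libraries shared a batch. The log2 fold change of EPHB4 was 0.0082 with length correction. That of EFNA5 was -0.061 with limma-voom, -0.026 with the replicate block, -0.079 without vector replicate 3 and -0.48 without SETD8 replicate 1, in a range of -0.48 to 0.24 over the left-out libraries; the cause was not tested. Depth limits EPHA4, EPHB3, EFNA2, EFNA3, EFNA4 and EFNA5, with 10 to 137 reads a library.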

Other observations

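EFNA4, EFNA3 and EFNA1 lie side by side within 71.1 kb of chromosome 1, and their neighbours were looked at after the rise of EFNA3 was seen. Of 17 other tested genes within 100 kb of this cluster, 2 were higher with SETD8 by edgeR's test, as were 3.08% of all tested genes. They were SLC50A1, which encodes a sugar transporter and is the next tested gene after EFNA1 (47.5 and 68.9 CPM on average in vector and SETD8 libraries, log2 fold change 0.54, edgeR adjusted p = 0.0244), and PYGO2, a component of the beta-catenin transcription complex (45.2 and 60.4 CPM, log2 fold change 0.42, edgeR adjusted p = 0.0340). ADAM15, the tested gene before EFNA4, had a log2 fold change of -0.20 (edgeR adjusted p = 0.226). The 17 neighbours had log2 fold changes from -1.38 to 0.63 with a median of 0.22. These genes were chosen for their position after values were seen, and the pattern was not tested.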
